A study of Homo sapiens with 32 samples.

Results

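Hypoxia-inducible factor (HIF) target genes were examined in lists of N6-methyladenosine (m6A) peaks from 2 human kidney cell lines. The list holds 35 genes of 20037 protein-coding genes, chosen by name as known HIF targets, and a peak was counted for a gene where it overlapped the gene body in RefSeq (GRCh38) by at least 1 bp. A peak was listed within 32 of the 35 genes in at least 1 library, and within 13420 of all protein-coding genes (67.0%). The data were methylated RNA immunoprecipitation sequencing (MeRIP-seq), in which an antibody against m6A pulls down RNA fragments and a peak marks where they pile up over the Input.

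HIF is a pair of a regulated alpha subunit and the constant beta subunit ARNT. With oxygen, prolyl hydroxylases mark the alpha subunit, and VHL, the recognition part of a ubiquitin ligase, has it destroyed; without oxygen or without VHL it persists and switches on genes of glucose uptake, glycolysis, blood vessel growth, pH control, collagen processing, mitochondrial turnover and lipid storage. Loss of VHL is the founding event of most clear cell renal cell carcinomas. m6A is written on nascent RNA by the METTL3 and METTL14 complex, mostly near stop codons and in long exons, and influences decay, splicing and translation. SETD2 is the enzyme that trimethylates lysine 36 of histone H3 (H3K36me3) along transcribed genes.

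786-O is a clear cell renal cell carcinoma line that lacks VHL, so all of its groups here carried that loss, and RPTEC is a renal proximal tubule epithelial line immortalised with hTERT. Each line was studied in 4 forms with 2 libraries each, 16 libraries in all: wild type for SETD2 (WT), the SETD2 knockout clones SETD2KO-1 and SETD2KO-2, and SETD2KO-1R, in which a FLAG-tagged full-length SETD2 transgene was put back into SETD2KO-1 and a clone derived. Each knockout or rescue line is 1 clone. 786-O and RPTEC were grown in different media, so cell line, VHL state, culture and experiment cannot be told apart. In what follows SETD2-expressing stands for WT and SETD2KO-1R together, and peak numbers of 8 libraries stand in the order WT, SETD2KO-1, SETD2KO-2, SETD2KO-1R, replicate 1 before replicate 2.

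The lists held 25710 to 39670 peaks in 786-O and 19249 to 31207 in RPTEC, and the shortest peak of any list spanned 233 bp. SETD2 itself, the targeted gene, had 8, 10, 5, 10, 5, 4, 7 and 9 peaks in 786-O and 7, 10, 6, 4, 4, 5, 11 and 10 in RPTEC, and as peak lists hold no expression or sequence these numbers cannot check the knockout. SETD2KO libraries lay below all SETD2-expressing ones in RPTEC, as they did for 1.28% of all tested genes (adjusted p = 1, exact permutation test), and overlapped them in 786-O. Of 11 kidney tubule markers 8 had a peak, among them PAX8, PAX2, CDH6 and GGT1 in all 16 libraries, while LRP2, AQP1 and SLC34A1 had none. ANPEP, like these 3 a marker of the proximal tubule, was listed in 2 libraries of 786-O and 8 of RPTEC, with means of 1.12 ± 2.23 and 5.38 ± 3.38 peaks (SD, n = 8 each; adjusted p = 0.142, exact permutation test), and its best score rank was called higher in RPTEC. GGT1, an enzyme of the brush border, had means of 5.25 ± 2.60 in 786-O and 1.62 ± 0.916 in RPTEC and did not pass (SD, n = 8 each; adjusted p = 0.0795, exact permutation test). Of 5 epithelial markers KRT8 and KRT18 were listed in all 16 libraries, KRT19 had more peaks in RPTEC (adjusted p = 0.0493, exact permutation test) and CDH1 had none. In 786-O only the WT libraries listed KRT19 (1 and 2 peaks) and ANPEP (3 and 6), and the knockout and rescue libraries listed neither. The 3 mesenchymal markers VIM, CDH2 and FN1 all had peaks in both lines. Of 6 markers of blood, endothelial and stromal cells PTPRC, PECAM1, VWF and COL3A1 had no peak, while CD68 was listed in 15 libraries and ACTA2 in 7.

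The HIF targets held 67 to 116 peaks per library in 786-O (median 95) and 43 to 99 in RPTEC (median 69.5). Per 10000 listed peaks this came to 28.2 ± 3.22 (SD, n = 8) in 786-O and 26.6 ± 3.18 (SD, n = 8) in RPTEC. Between 24 and 30 of the 35 genes had a peak in a 786-O library and between 22 and 28 in an RPTEC library. A peak was present in all 16 libraries for 15 of the genes, which is 15 of the 32 with any peak, against 34.5% of all genes with any peak. The study gives a minimum depth only, and the depth of each library is unknown, because the files hold no reads. A site under the caller's threshold is not listed, so a 0 means that no peak was called.

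**Figure D1:**
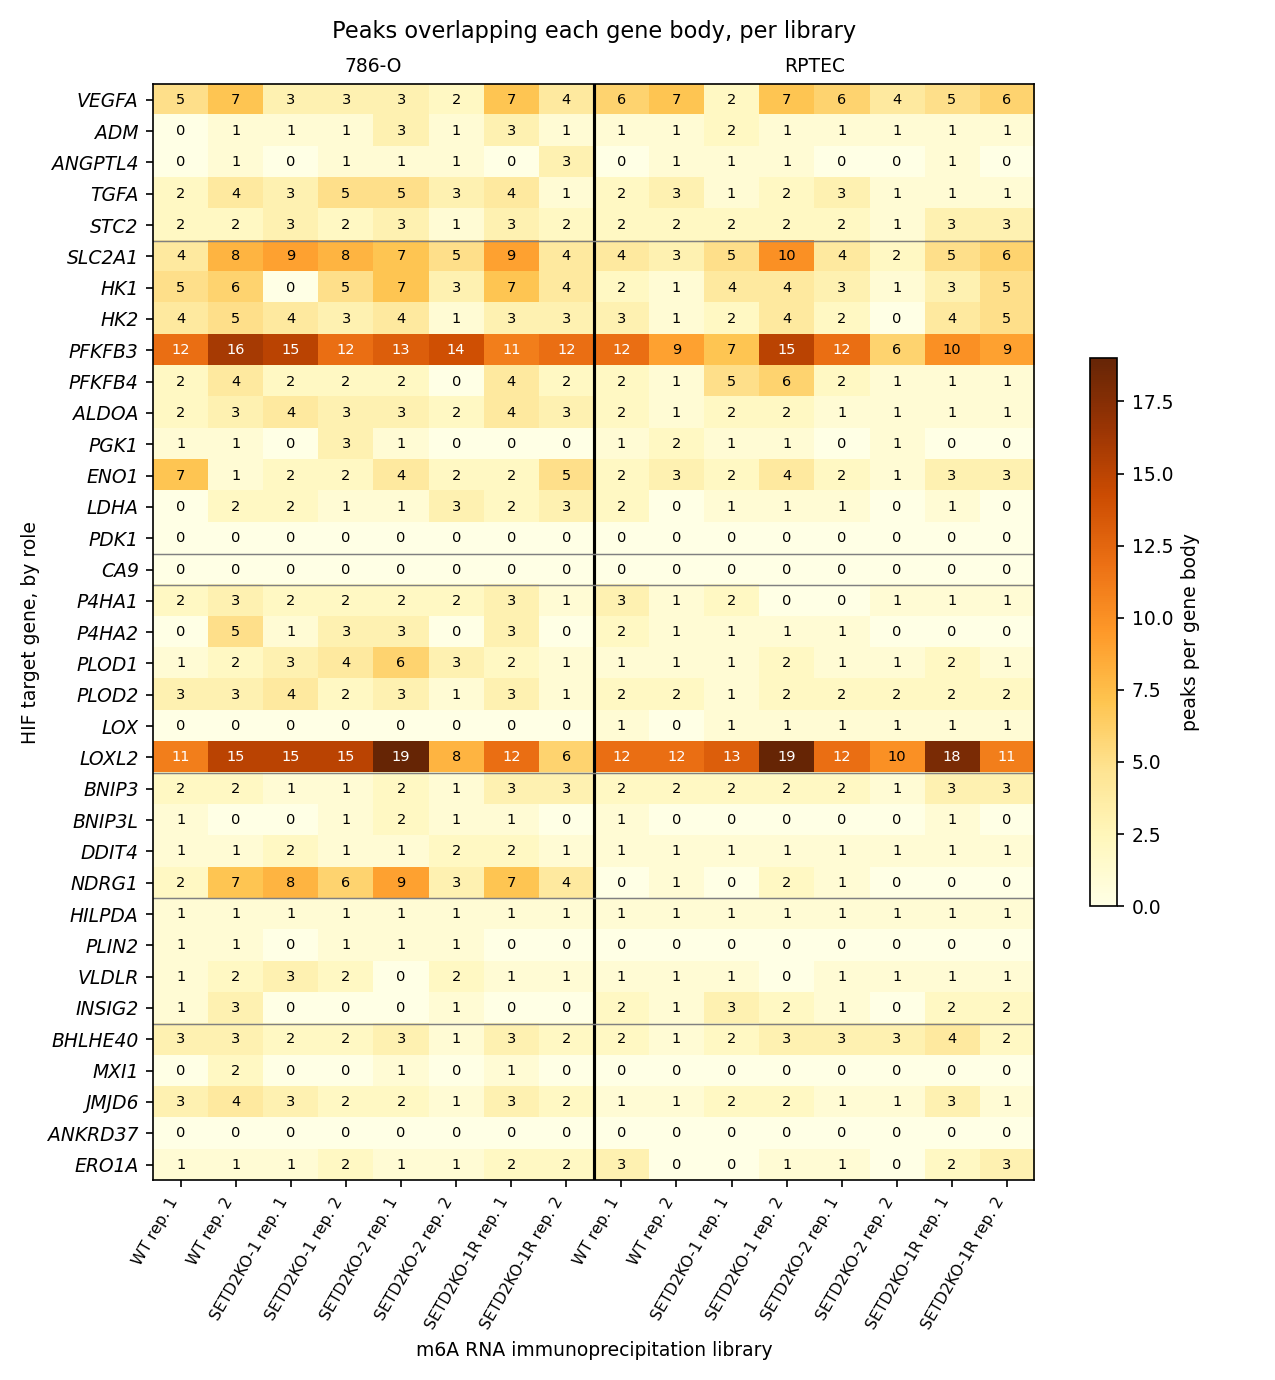
Number of m6A peaks overlapping the gene body (colour and digits) of each of the 35 HIF targets (vertical axis, ordered by role) in each of the 16 libraries (horizontal axis; rep., replicate). PFKFB3 and LOXL2 hold 6 or more peaks in every library, NDRG1 holds 2 to 9 in 786-O and 0 to 2 in RPTEC, and PDK1, CA9 and ANKRD37 hold none.

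HIF binds DNA at a short core, ACGTG or GCGTG, called the hypoxia response element. RefSeq promoter windows (GRCh38.p14, from 250 bases before to 50 after the start) were at hand for 29 of the 35 genes. The core, searched on both strands, so also as CACGT or CACGC, was found in the first listed window of 24 of these 29 (82.8%), against 55.9% of 15843 protein-coding genes. CACGTG, the E-box that other factors bind, holds it on both strands. A match is only a match of letters. Stretches from the bases before the start are shown for 7 genes, with the core in capitals. The first 4 genes had a peak reaching into the window, in both cell lines or in 1 of them; the last 3 are reference HIF targets whose window no peak reached in any library.

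LOX (chr5:122078287-122078454, minus strand): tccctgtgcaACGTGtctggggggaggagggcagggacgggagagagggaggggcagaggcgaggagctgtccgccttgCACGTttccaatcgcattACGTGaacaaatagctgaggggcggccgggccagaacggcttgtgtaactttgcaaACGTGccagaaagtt
VLDLR (chr9:2621616-2621770, plus strand): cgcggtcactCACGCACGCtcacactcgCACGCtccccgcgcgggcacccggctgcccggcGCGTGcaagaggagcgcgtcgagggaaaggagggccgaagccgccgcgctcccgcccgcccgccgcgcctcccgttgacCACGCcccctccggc
ERO1A (chr14:52695658-52695738, minus strand): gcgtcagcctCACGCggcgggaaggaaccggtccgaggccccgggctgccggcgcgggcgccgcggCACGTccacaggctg
BHLHE40 (chr3:4979187-4979302, plus strand): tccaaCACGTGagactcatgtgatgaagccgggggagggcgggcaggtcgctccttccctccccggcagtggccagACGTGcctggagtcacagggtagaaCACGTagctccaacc
CA9 (chr9:35673900-35673924, plus strand): gtttccaatgCACGTacagcccgta
LDHA (chr11:18394368-18394504, plus strand): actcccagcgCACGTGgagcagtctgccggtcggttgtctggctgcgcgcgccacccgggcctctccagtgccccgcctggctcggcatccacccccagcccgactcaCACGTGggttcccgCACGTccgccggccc
PLIN2 (chr9:19127546-19127622, minus strand): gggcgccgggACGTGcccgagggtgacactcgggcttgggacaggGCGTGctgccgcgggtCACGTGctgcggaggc

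A peak overlapped the promoter window of 19 of the 29 genes in at least 1 library. ERO1A, whose product reoxidises the enzymes that fold proteins in the endoplasmic reticulum, was the only one with an overlap in all 16 libraries, and its cores shown above lie inside that called region. SLC2A1 was overlapped in 8 libraries of 786-O and 6 of RPTEC, and BHLHE40 in 6 and 7. LOX was overlapped in 0 and 7 and VLDLR in 4 and 0. In RPTEC WT replicate 2, SETD2KO-1 replicate 1 and SETD2KO-2 replicate 2 no ERO1A peak overlapped the gene body, so there the peak lay wholly before the annotated start and does not enter the counts per gene below. Since the lists give no strand, RNA from the other strand cannot be told apart.

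The first comparison asked whether the HIF targets carry other m6A peaks in the VHL-deficient cancer line than in the tubule line. NDRG1 and ALDOA had more peaks in 786-O and LOX had more in RPTEC, and the other 29 genes with a peak did not pass the test. The test was a two-sided exact permutation of the 8 libraries of each cell line, with the p-values of all 13420 genes adjusted by Benjamini-Hochberg. The background was 3.44% of all tested genes with more peaks in 786-O and 1.92% with more in RPTEC, and counts of 2 and 1 among the 32 tested HIF targets are too few to set the list apart from it. The libraries of a line are not stated to be separate cultures, so the p-values measure the spread between these libraries, which may be technical. By mean peak number 23 of the 32 were higher in 786-O and 7 lower, against 64.2% and 28.9% of all tested genes. The median difference, 786-O minus RPTEC, was 0.562 peaks for the HIF targets and 0.25 for all tested genes. Per 10000 listed peaks 21 were higher and 11 lower, against 50.6% and 49.4% of all tested genes. Of all calls 64.3% were higher in 786-O, but 34.4% with the lists cut to the same number of peaks and 45.6% per 10000 listed peaks, so the lean of the calls depends on list length. The calls were 462 higher in 786-O and 257 in RPTEC, 148 and 282 with equal lists, and 430 and 512 per 10000 listed peaks.

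NDRG1, a stress protein induced by hypoxia and tied to differentiation and to lipid and vesicle handling, stood furthest apart. Its gene body (chr8:133237175-133297252) held 2, 7, 8, 6, 9, 3, 7 and 4 peaks in 786-O and 0, 1, 0, 2, 1, 0, 0 and 0 in RPTEC. The ranges touch only at 2 peaks, in 1 library of each line. The means were 5.75 ± 2.49 and 0.5 ± 0.756 (SD, n = 8 each; adjusted p = 0.0148, exact permutation test). Merging the peaks of all 16 libraries gave 12 regions in this gene, 10 of which were called in no RPTEC library. A region at chr8:133296202-133297218, at the end of the gene body with the higher coordinate, was called in all 8 libraries of 786-O and in 1 of RPTEC (SETD2KO-1 replicate 2). Another, at chr8:133265649-133266142, was called in 7 and 0, and one at chr8:133288098-133288798, in 6 and 0. Its best peak stood at percentile 69.4 to 92.3 of the scores of its 786-O library, and with libraries without a peak set to 0 the mean best percentile was 82.7 ± 7.0 in 786-O and 18.0 ± 32.2 in RPTEC (SD, n = 8; adjusted p = 0.0121, exact permutation test). Chromosome 8 as a whole took 3.45% to 4.45% of the peaks of a 786-O library and 3.34% to 3.98% of an RPTEC library. With the lists cut to equal length the difference in peak number was 3.25 in place of 5.25 and still passed (adjusted p = 0.0245, exact permutation test). With only the higher-scoring 50% of peaks kept, the difference in peak number did not pass (2.88 peaks, adjusted p = 0.0559, exact permutation test), while the difference in best percentile did. Whether NDRG1 RNA is more abundant in 786-O or more methylated was not tested, because a peak needs both the RNA and the mark.

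**Figure D2:**
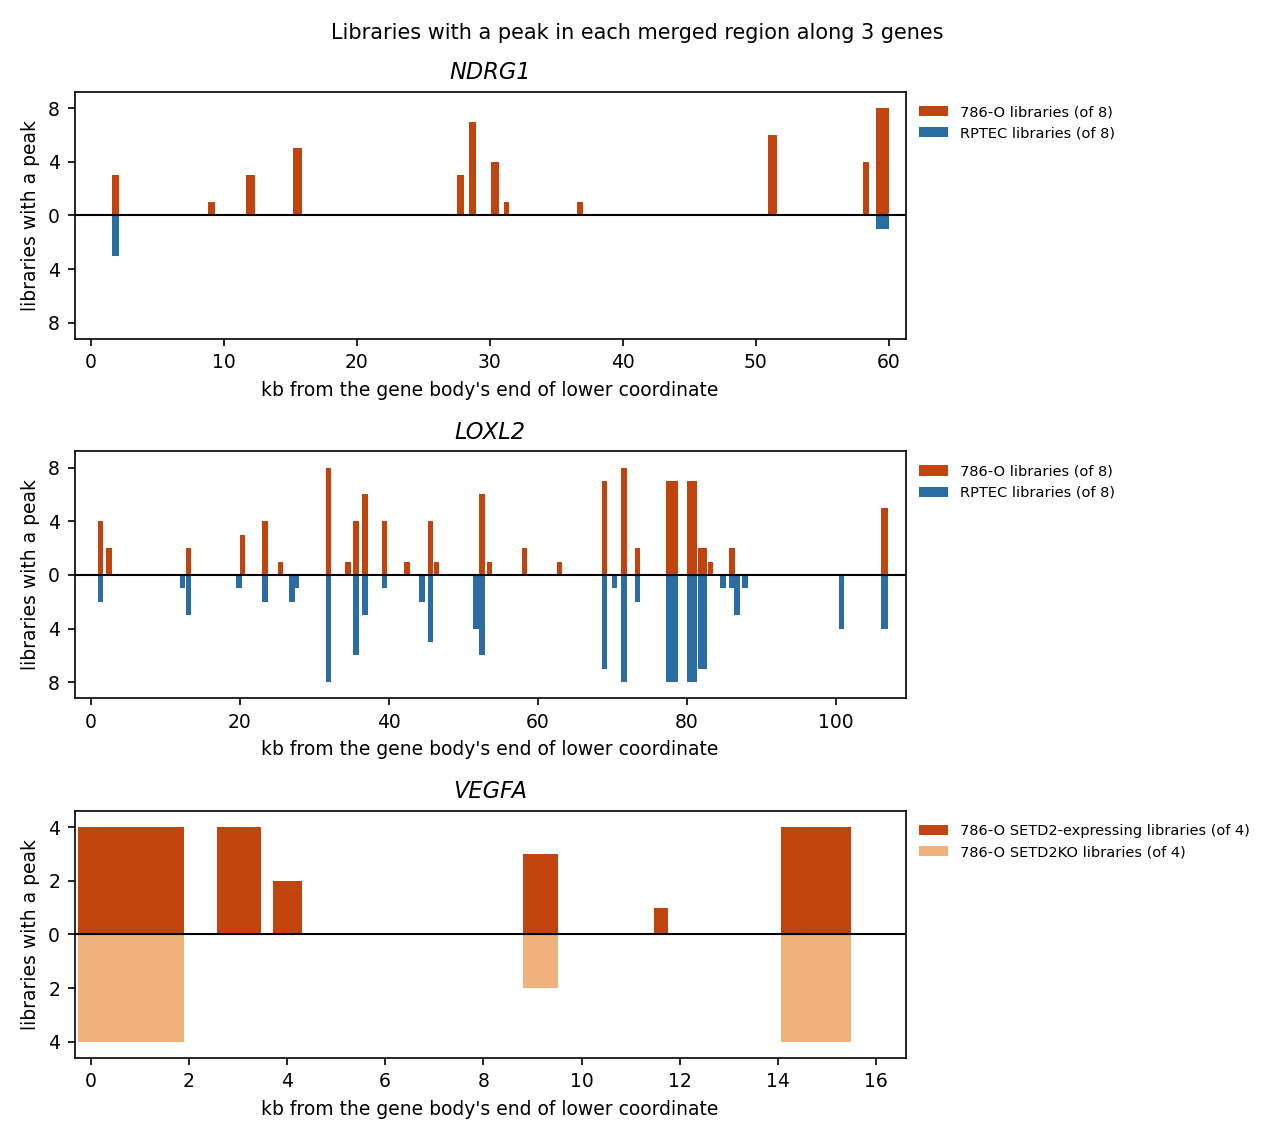
Number of libraries (vertical axis) with a peak in each region of the gene body, with distance in kb from the end of lower coordinate on the horizontal axis; upward bars are 786-O libraries in the NDRG1 and LOXL2 panels and 786-O SETD2-expressing libraries in the VEGFA panel, and downward bars are RPTEC libraries and 786-O SETD2KO libraries. Regions narrower than the gene length divided by 150 are drawn at that width. NDRG1 regions are called almost all in 786-O, LOXL2 regions in both lines, and the second VEGFA region in 4 SETD2-expressing and 0 SETD2KO libraries.

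Among the other genes of mitochondrial turnover and stress, BNIP3, a mitophagy receptor of the outer mitochondrial membrane, held 1 to 3 peaks in every library of both lines, and 1 region of it stood at percentile 84.4 to 99.6 in all 16. Its regions near the end of the gene overlap PPP2R2D. BNIP3L, its close relative, was listed in 5 libraries of 786-O and 2 of RPTEC, with at most 2 peaks. DDIT4, an inhibitor of mTORC1 also called REDD1, held 1 or 2 peaks in every library, and its shared region stood at percentile 70.5 to 96.8.

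Glucose uptake and glycolysis made up the largest group, and 9 of its 10 genes had a peak. Summed, these genes held 30 to 46 peaks per 786-O library (median 38.5) and 13 to 47 per RPTEC library (median 28.5), with overlap. ALDOA, the aldolase that splits fructose bisphosphate, held 2, 3, 4, 3, 3, 2, 4 and 3 peaks in 786-O and 2, 1, 2, 2, 1, 1, 1 and 1 in RPTEC. The lines shared only the value 2, and the means were 3 ± 0.756 and 1.38 ± 0.518 (SD, n = 8 each; adjusted p = 0.0331, exact permutation test). A region in the middle of the gene, chr16:30066979-30067495, was called in 4 libraries of 786-O and 0 of RPTEC, while the region at chr16:30068073-30068724 was called in all 16. The difference of 1.62 peaks was 1.38 with equal list lengths and 1.25 in the upper 50% of scores, neither of which passed (adjusted p = 0.114 and 0.127, exact permutation test). Per 10000 listed peaks it was 0.399 and narrowly missed the threshold (adjusted p = 0.0503, exact permutation test). Each ALDOA region also lies in LOC112694756, an overlapping gene, so no peak was left when such shared peaks were dropped.

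SLC2A1, the glucose transporter GLUT1, held 4, 8, 9, 8, 7, 5, 9 and 4 peaks in 786-O and 4, 3, 5, 10, 4, 2, 5 and 6 in RPTEC, with wide overlap (adjusted p = 0.486, exact permutation test). PFKFB3, which makes the sugar phosphate that activates phosphofructokinase, held 11 to 16 peaks in 786-O and 6 to 15 in RPTEC (adjusted p = 0.197, exact permutation test). LDHA, which turns pyruvate into lactate, held 0, 2, 2, 1, 1, 3, 2 and 3 peaks in 786-O and 2, 0, 1, 1, 1, 0, 1 and 0 in RPTEC (adjusted p = 0.328, exact permutation test). A region just after the LDHA start, chr11:18394661-18395136, was called in 5 libraries of 786-O and in no RPTEC library, whereas the region near its end, chr11:18406843-18407174, was called in 5 of each.

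PGK1, which makes the first ATP of glycolysis, held 1, 1, 0, 3, 1, 0, 0 and 0 peaks in 786-O and 1, 2, 1, 1, 0, 1, 0 and 0 in RPTEC, a mean of 0.75 in both. HK1, HK2, PFKFB4 and ENO1 held 0 to 7 peaks per library in 786-O and 0 to 6 in RPTEC. PDK1, a pyruvate dehydrogenase kinase, had no peak in any library although its gene body spans 168.9 kb. Among 1037 genes of 80% to 125% of that length 19.4% had none either. CA9, the cell surface carbonic anhydrase that is a marker of clear cell renal cell carcinoma, had no peak in any library, as did 42.1% of 1614 genes of similar length. ANKRD37 likewise had none, as did 47.8% of 1093 genes of similar length. These 3 genes were not tested.

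**Figure D3:**
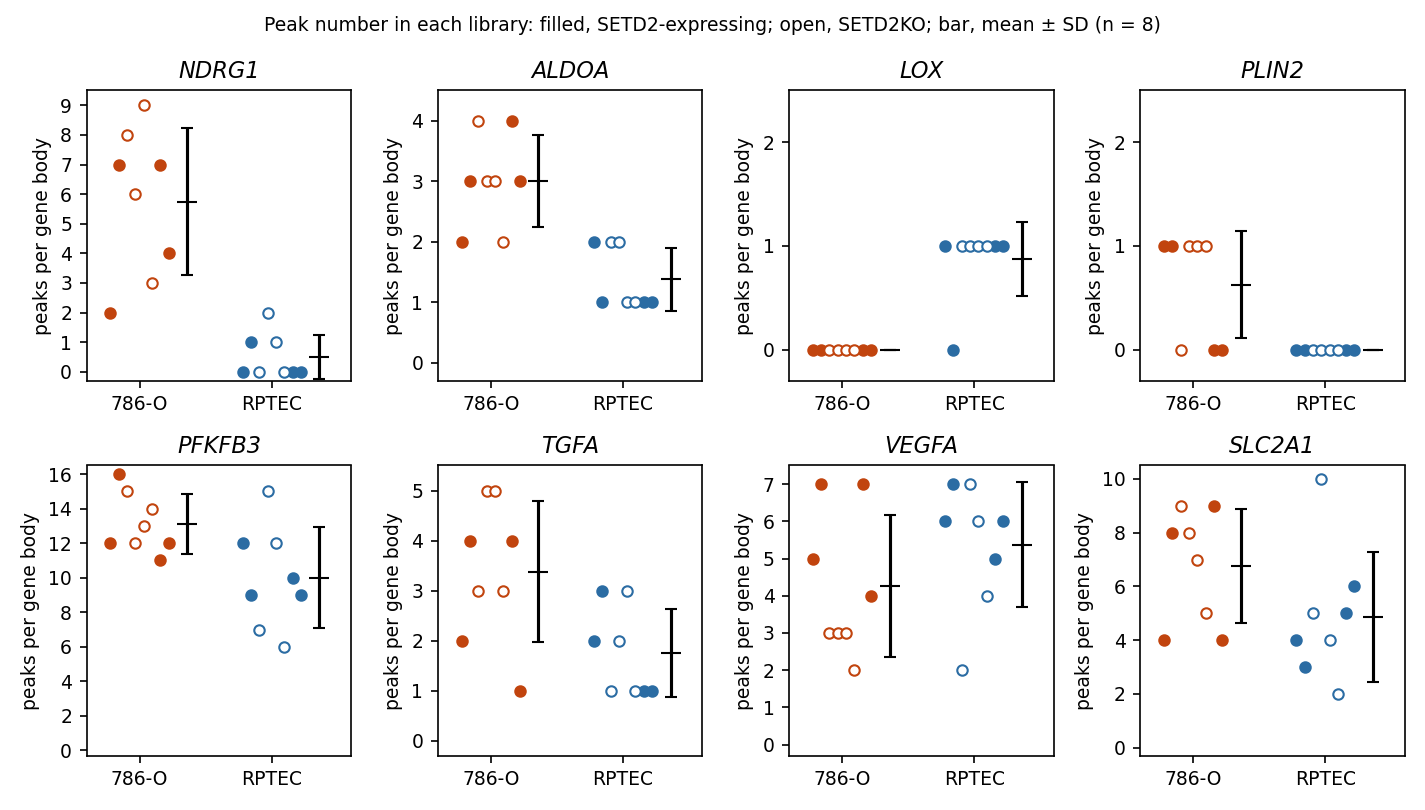
Peaks per gene body (vertical axes) in each 786-O and RPTEC library for 8 HIF targets; filled points are SETD2-expressing libraries, open points SETD2KO libraries, and the bar is the mean ± SD of 8 libraries. NDRG1 and ALDOA lie higher in 786-O and LOX higher in RPTEC, and the other 5 genes did not pass the test.

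LOX, the lysyl oxidase that cross-links collagen and elastin, was the gene with more peaks in RPTEC. Its gene body (chr5:122063195-122078259) held no peak in any of the 8 libraries of 786-O and 1, 0, 1, 1, 1, 1, 1 and 1 in RPTEC (means 0 and 0.875 ± 0.354, SD, n = 8; adjusted p = 0.0318, exact permutation test). All 7 peaks fall in 1 region at the gene start, chr5:122077541-122078546, at percentile 32.1 to 84.2 of their lists, and the cores of the LOX stretch above lie inside it. The best percentile, set to 0 in libraries without a peak, had means of 0 and 58.4 ± 28.2 (SD, n = 8; adjusted p = 0.0291, exact permutation test). With no LOX peak in 786-O, this rests on the same presence or absence of a peak and is not separate support. By best percentile the background was 3.82% of tested genes higher in 786-O and 2.47% higher in RPTEC, with NDRG1 and LOX as the only HIF targets, 1 in each direction. The region also lies in SRFBP1, so LOX RNA and SRFBP1 RNA cannot be told apart. Neither LOX call held when such shared peaks were left out, when the summit had to lie in the gene body or in the upper 50% of scores. LOX entered the test only through its RPTEC peaks, and with a mean of at least 1 peak per library required it was not tested.

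P4HA1 and P4HA2, the catalytic subunits of collagen prolyl hydroxylase, and PLOD1 and PLOD2, collagen lysyl hydroxylases, did not pass the test between cell lines. P4HA2 held 0, 5, 1, 3, 3, 0, 3 and 0 peaks in 786-O and 2, 1, 1, 1, 1, 0, 0 and 0 in RPTEC. A single region of 295 bp in it, chr5:132209313-132209607, was called in 5 libraries of 786-O, always at or above percentile 98.6, and in 0 of RPTEC. The 3 libraries of 786-O without it, WT replicate 1, SETD2KO-2 replicate 2 and SETD2KO-1R replicate 2, also lacked the region at the LDHA start, and they have the shortest lists of the line. LOXL2, a relative of LOX, held 6 to 19 peaks in 786-O and 10 to 19 in RPTEC, spread over 38 regions.

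The lipid genes were sparse. PLIN2, the coat protein of lipid droplets that accumulate in clear cell tumours, held 1, 1, 0, 1, 1, 1, 0 and 0 peaks in 786-O and none in RPTEC, which did not pass the test (p = 0.0256, adjusted p = 0.178, exact permutation test). Its region at chr9:19121099-19121410 was called in 4 libraries of 786-O at percentile 79.5 to 91.7. HILPDA, an inhibitor of the lipase ATGL, held exactly 1 peak in all 16 libraries. VLDLR, a lipoprotein receptor, was listed in 7 libraries of each line, with a region over its start in 4 of 786-O and 0 of RPTEC. INSIG2, which holds back sterol synthesis, had 1, 3, 0, 0, 0, 1, 0 and 0 peaks in 786-O and 2, 1, 3, 2, 1, 0, 2 and 2 in RPTEC (adjusted p = 0.399, exact permutation test). Chromosome 9, which holds PLIN2, VLDLR and CA9, took 4.48% to 6.21% of the peaks of a 786-O library and 4.23% to 4.57% of an RPTEC library.

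Of the secreted signals, VEGFA, the main growth factor of blood vessels, held 2 to 7 peaks in both lines (adjusted p = 0.659, exact permutation test). TGFA, a ligand of the EGF receptor, held 2, 4, 3, 5, 5, 3, 4 and 1 peaks in 786-O and 2, 3, 1, 2, 3, 1, 1 and 1 in RPTEC (adjusted p = 0.198, exact permutation test). STC2, a secreted glycoprotein, held 1 to 3 peaks in every library. ADM, a vasodilator peptide, was listed in 15 libraries and ANGPTL4, an inhibitor of lipoprotein lipase, in 9. The transcription and chromatin genes BHLHE40, a repressor, and JMJD6, an oxygenase, were listed in all 16 libraries. MXI1, an antagonist of MYC, held 0, 2, 0, 0, 1, 0, 1 and 0 peaks in 786-O and none in any RPTEC library (adjusted p = 0.544, exact permutation test).

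**Figure D4:**
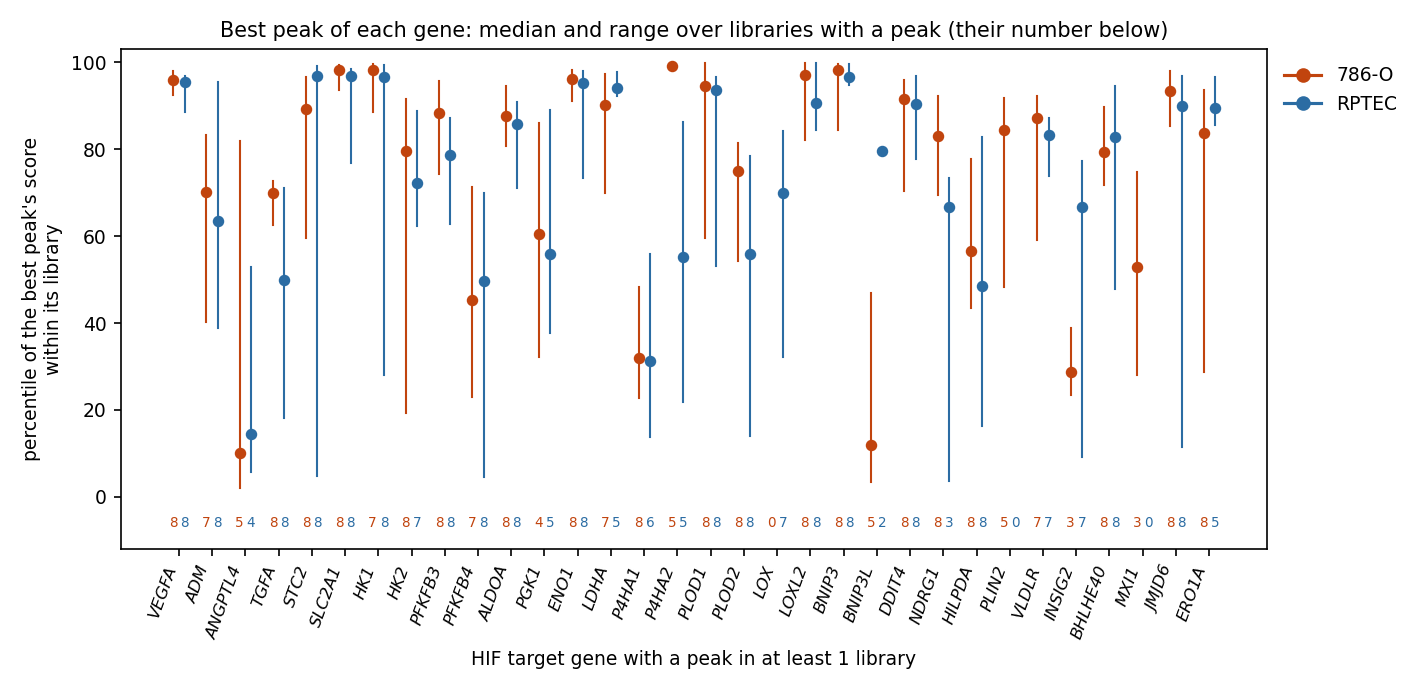
Percentile of the best peak's score within its library (vertical axis) for the 32 HIF targets with a peak; points are medians and lines the range over the libraries with a peak, whose number out of 8 is printed below. BNIP3 stays above percentile 84 in all 16 libraries and P4HA2 at or above 98.6 in 5 libraries of 786-O.

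Per length of gene body the values ranged widely, and a single peak weighs more in a short gene. The mean was 6.51 peaks per 10 kb in 786-O and 4.73 in RPTEC for DDIT4, 5.91 and 4.84 for ADM, 4.88 and 2.24 for ALDOA, and 4.03 and 4.25 for BHLHE40. It was 0.957 and 0.0832 for NDRG1, 0.0627 and 0 for MXI1, and 0 in both lines for CA9 and ANKRD37, which are also short. Of 237 regions in the HIF targets 15 (6.33%) were called in all 16 libraries, against 4.86% of 82676 regions in protein-coding genes. None of the 237 was called in all 8 libraries of 1 cell line and none of the other, where the background was 0.134% for 786-O and 0.156% for RPTEC. With at least 4 libraries of 1 line and none of the other there were 12 for 786-O (background 2.5%), 5 of them in NDRG1, and 3 for RPTEC (background 1.43%), in LOX and LOXL2.

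Summits were placed along the gene for the genes whose strand was known. In 786-O 15.9% ± 2.70 (SD, n = 8 libraries) of summits lay in the last 10% of the gene body, against 20.2% ± 1.17 over all genes with a strand, and in RPTEC 17.4% ± 3.5 against 21.5% ± 1.3. The first 10% held 15.5% ± 5.33 in 786-O, against 13.7% ± 1.47, and 18.0% ± 4.74 in RPTEC, against 12.6% ± 2.08. These shares come from the same libraries and 25 and 24 genes, and are given without a test.

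The genes around HIF itself were taken as a second list of 17 subunits, sensors and cofactors. A peak was listed in 16 of them, all but HIF3A, and by peak number none passed the test between cell lines. HIF1A, EPAS1 (HIF2 alpha) and VHL were listed in all 16 libraries. EGLN3, a prolyl hydroxylase that is itself a HIF target, held 3, 3, 3, 1, 1, 0, 2 and 5 peaks in 786-O and 0, 1, 0, 1, 0, 0, 0 and 0 in RPTEC (adjusted p = 0.0843, exact permutation test). ARNT2, a relative of ARNT, was listed in 3 libraries of 786-O and 7 of RPTEC, with means of 0.375 ± 0.518 and 3.25 ± 2.43 peaks, and did not pass either (SD, n = 8 each; adjusted p = 0.0514, exact permutation test). By best percentile 3 of the 16, EGLN3, ELOC and CREBBP, were called higher in 786-O and none in RPTEC, where the shares over all tested genes were 3.82% and 2.47%. Of 36 further HIF targets, all with a peak, CA12 was called with more peaks in 786-O and LOXL1 with more in RPTEC, 1 of 36 in each direction against 3.44% and 1.92% of all tested genes. By best percentile CA12, IGFBP3, AK4 and SPAG4 were called higher in 786-O and LOXL1 in RPTEC, against 3.82% and 2.47%. CA12, another carbonic anhydrase, held 3, 6, 5, 5, 7, 4, 6 and 4 peaks in 786-O and 1, 1, 1, 2, 1, 1, 0 and 0 in RPTEC, without overlap (adjusted p = 0.00831, exact permutation test). LOXL1, a further lysyl oxidase, held 0, 0, 0, 0, 1, 0, 0 and 0 in 786-O and 2, 2, 2, 4, 2, 1, 3 and 2 in RPTEC (adjusted p = 0.0148, exact permutation test).

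The second comparison asked whether the HIF targets carry other peaks when SETD2 is lost. With 4 SETD2KO and 4 SETD2-expressing libraries per cell line, a gene was counted where the values of the groups did not overlap. That gives an exact permutation p of 0.0286, the smallest that 4 against 4 libraries allow. SETD2 state was set per line, and each line gave 2 libraries to its group. The p-value therefore measures the spread between libraries and not between clones, and lines as units were not compared by SETD2. No gene of the 13420 passed after adjustment in either cell line. In 786-O PLOD1 was higher and VEGFA lower in SETD2KO, 1 gene in each direction of 32, against a background of 1.41% higher and 0.835% lower. In RPTEC no HIF target was separated in peak number, with a background of 0.917% higher and 1.28% lower. Mean peak number was higher in SETD2KO for 12 of the 32 genes and lower for 14 in 786-O, against 41.7% and 37.2% of all tested genes. In RPTEC it was higher for 9 and lower for 11, against 27.7% and 48.7%.

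VEGFA (chr6:43770211-43786487) held 3, 3, 3 and 2 peaks in the SETD2KO libraries of 786-O, and 5, 7, 7 and 4 in WT and SETD2KO-1R. Every SETD2KO library lay below every SETD2-expressing library, with means of 2.75 ± 0.5 and 5.75 ± 1.5 (SD, n = 4 each; exact permutation p = 0.0286, adjusted p = 1). In RPTEC the SETD2KO libraries held 2, 7, 6 and 4 and the others 6, 7, 5 and 6, with overlap. The region chr6:43772781-43773681 was called in all 4 SETD2-expressing libraries of 786-O and in 0 of its 4 SETD2KO libraries, while 3 of 4 of each group had it in RPTEC. Of all regions in protein-coding genes 0.122% show this pattern in 786-O, and this was the only one in the HIF targets. The opposite pattern, all 4 SETD2KO and no SETD2-expressing library of 786-O, was met by none of the 237 regions (background 0.221%), as were both patterns in RPTEC (background 0.143% and 0.149%). The regions at the VEGFA ends, chr6:43769946-43772118 and chr6:43784272-43785699, were called in all 16 libraries. Chromosome 6 took 4.0% to 4.46% of peaks in SETD2KO and 4.19% to 4.73% in SETD2-expressing libraries of 786-O.

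PLOD1 (chr1:11934717-11975537) held 3, 4, 6 and 3 peaks in the SETD2KO libraries of 786-O and 1, 2, 2 and 1 in the SETD2-expressing ones, again without overlap (means 4 ± 1.41 and 1.5 ± 0.577, SD, n = 4 each; exact permutation p = 0.0286, adjusted p = 1). In RPTEC the SETD2KO libraries held 1, 2, 1 and 1 and the others 1, 1, 2 and 1. The region chr1:11950008-11950410 was called in both SETD2KO-1 libraries and in SETD2KO-2 replicate 1 of 786-O, in none of its SETD2-expressing libraries, and in SETD2KO-1R replicate 1 of RPTEC. The region at the end of the gene, chr1:11974395-11975374, was called in all 16 libraries.

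By best percentile no HIF target was separated in 786-O (background 2.42% higher and 1.92% lower in SETD2KO). In RPTEC PLOD1 was higher in SETD2KO (95.8 ± 0.977 against 79.7 ± 17.9, SD, n = 4 each; exact permutation p = 0.0286, adjusted p = 0.771), with a background of 1.8% higher and 1.9% lower and no HIF target lower. In RPTEC SETD2KO-1R replicate 2 PLOD1 stood at 92.7, close to the lowest SETD2KO library at 94.5. The difference in means was 16.1 percentile points, and 7.28 without RPTEC WT replicate 2, where PLOD1 stood at 53.2.

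**Figure D5:**
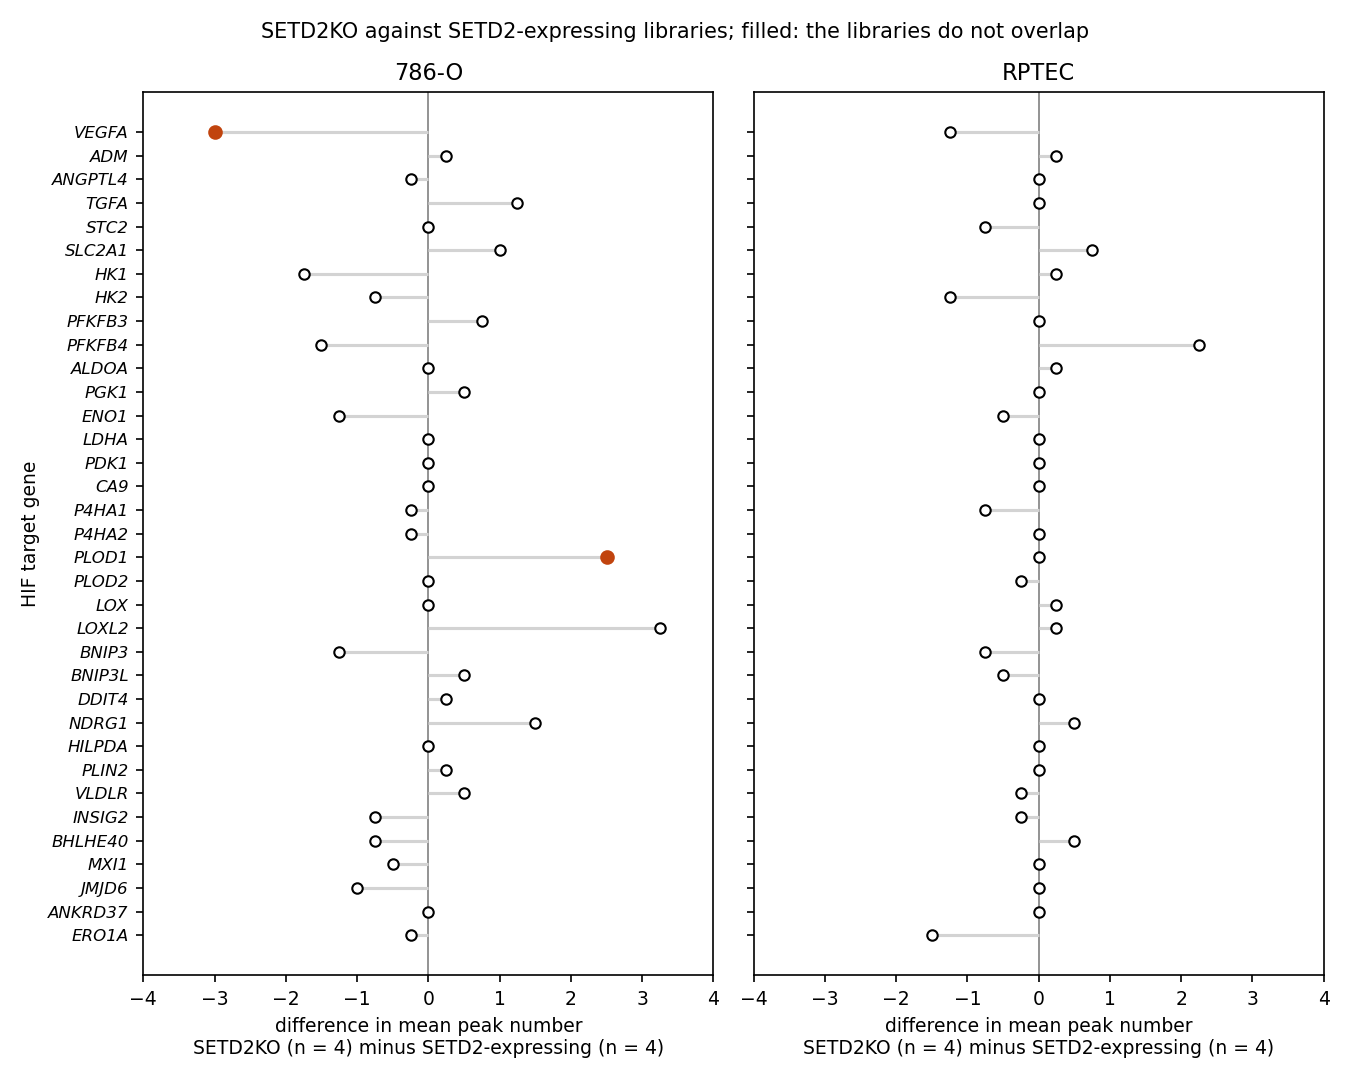
Difference in mean peak number, SETD2KO minus SETD2-expressing (horizontal axes, n = 4 libraries each), for the 35 HIF targets (vertical axis) in 786-O and RPTEC; filled points are genes whose 2 groups of libraries do not overlap. VEGFA at −3 and PLOD1 at 2.5 in 786-O are filled, and none is filled in RPTEC.

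NDRG1 held 8, 6, 9 and 3 peaks in the SETD2KO libraries of 786-O and 2, 7, 7 and 4 in the others, with overlap. LOXL2, with the largest mean difference of the list in either direction, held 15, 15, 19 and 8 against 11, 15, 12 and 6, also with overlap. Both lie on chromosome 8, which took 4.22% to 4.45% of peaks in the SETD2KO libraries of 786-O and 3.45% to 3.74% in its SETD2-expressing libraries; its part in these values was not tested.

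Whether the SETD2KO effect differed between 786-O and RPTEC was tested by permuting the SETD2 labels within each line. No gene of the 13420 was called (0%), with 485 at an unadjusted p under 0.05. The lowest values among the HIF targets were those of PFKFB4 and PLOD1. PFKFB4, a relative of PFKFB3, held 2, 2, 2 and 0 peaks in SETD2KO and 2, 4, 4 and 2 in the other libraries of 786-O, and 5, 6, 2 and 1 against 2, 1, 1 and 1 in RPTEC (exact permutation p = 0.0367, adjusted p = 1). For PLOD1 the exact permutation p was 0.0469 and the adjusted p was 1. Of the second list 1 gene of 16 was separated by SETD2 in peak number in RPTEC, against a background of 1.28% in that direction, and none in 786-O. This was CREBBP, a coactivator of HIF, with 4, 6, 5 and 4 peaks in SETD2KO and 8, 7, 10 and 7 in SETD2-expressing libraries.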

How the data were processed

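MeRIP-seq peak lists of 16 libraries were used, 2 for each of 4 lines in each of 2 cell lines, grouped by the labels. Per the study's methods and the submitters' processing notes, reads were aligned with STAR to hg38, counted with HTSeq and scaled by an E. coli RNA spike-in and by depth, and MACS2 called peaks of the immunoprecipitate over Input in each library at q up to 0.05. The authors deposited, for each peak, its interval, its summit and a score, a whole number of at least 14, whose scale is not stated. The deposited score was therefore used only as a rank (percentile) within its list. How the spike-in factors entered the peak calling is not stated, and the depth of each library is unknown here. Reads and expression values were not analysed here.

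Peaks were counted for a gene where they overlapped its RefSeq body by at least 1 bp. Peaks of all libraries that overlapped were merged into regions. A gene with no peak in a library had a best percentile of 0. Cell lines were compared with a two-sided exact permutation test over libraries (12870 arrangements, smallest p 0.0001554), adjusted by Benjamini-Hochberg over 13420 genes and called at 0.05. SETD2KO and SETD2-expressing libraries were compared by lack of overlap, and the difference between cell lines by permutation within each. Scripts ran in Python 3.11.15 with SciPy 1.17.1 and NumPy 2.4.6, tables were read with pandas 2.3.3, and Matplotlib 3.10.9 drew the plots. The tests were tested on simulated data with Poisson noise and 200 of 13420 genes changed 4-fold. Between cell lines 191 were recovered, with 7 unchanged genes called. By lack of overlap in 786-O 183 were recovered, with 90, and by the interaction at an unadjusted p 176, with 265. The changed genes were drawn only from genes that reached a minimum mean peak number, which LOX and PLIN2 do not reach. Recovery of such sparse genes was not tested.

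The HIF targets, the pathway and marker lists and the tests were chosen with earlier results of these data known. Values in every library were given for HIF targets called between cell lines, those without overlap by SETD2, those with no peak in a cell line, and CA9, VEGFA, SLC2A1, LDHA, PGK1 and PLIN2; further genes given in this way were chosen after their values were seen. Alternatives tried were equal list lengths, the upper 50% of scores, summit in the body, no shared peaks, a mean of at least 1 peak, peaks within 100 bp merged, counts per 10000 listed peaks, lines as units, a replicate block, WT alone, SETD2KO-1 against SETD2KO-1R, and each library left out.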

Additional observations from a re-analysis of the deposited data

Results flagged for a closer look

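The peak number of 1 library stood apart from the rest of its group (Dixon's test, 95% level) in 10 cases among 76 groups whose libraries were not all equal (88 groups examined), and chance gives about 1 in 20 groups; peak numbers are small whole numbers, so a single peak can be enough. In RPTEC, ADM held 2 peaks in SETD2KO-1 replicate 1 against a median of 1 in the other libraries, PLOD2 held 1 there against 2, LOX held 0 in WT replicate 2 against 1, and VLDLR held 0 in SETD2KO-1 replicate 2 against 1. In 786-O, ANGPTL4 held 3 in SETD2KO-1R replicate 2 against 1, PGK1 held 3 in SETD2KO-1 replicate 2 against 0, and INSIG2 held 3 in WT replicate 2 against 0. Within the SETD2 groups, VEGFA held 2 in 786-O SETD2KO-2 replicate 2 against 3, and PLOD1 held 2 in RPTEC SETD2KO-1 replicate 2 and 2 in RPTEC SETD2KO-1R replicate 1, against 1 in each group.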

How the results depend on the processing

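Between cell lines, the count of HIF targets with more peaks in 786-O was 2. It became 1 with equal list lengths, 1 per 10000 listed peaks and 1 without shared peaks (ALDOA lost each time). It became 0 in the upper 50% of scores (NDRG1 lost too), while lines as units gave 3 (PFKFB3 added). Lines as units called a gene where the line means of 786-O and RPTEC did not overlap, with no p-value and no adjustment. Its counts and share of calls in this paragraph are therefore not at the threshold of the other settings. The count with more peaks in RPTEC was 1, LOX, and 0 in the upper 50% of scores, 0 with the summit in the gene body, 0 without shared peaks and 0 with a mean of at least 1 peak, where LOX is no longer tested. By best percentile the count higher in 786-O was 1 and became 2 with the summit in the body (SLC2A1 added) and 4 with lines as units; that higher in RPTEC was 1 and became 0 under the same 4 settings that removed LOX by peak number, and 2 with lines as units (INSIG2 added). Over all genes 64.3% of calls were higher in 786-O, 34.4% with equal list lengths, 45.6% per 10000 listed peaks, 63.4% with the replicate block and 72.8% with lines as units.

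By SETD2, VEGFA and PLOD1 kept non-overlapping peak numbers in 786-O in all 18 alternatives. The count higher in SETD2KO in 786-O went from 1 to 3 for SETD2KO-1 against SETD2KO-1R alone, and the count lower from 1 to 2 there and to 4 per 10000 listed peaks; in RPTEC they went from 0 to 4 and from 0 to 3 for SETD2KO-1 against SETD2KO-1R. By best percentile in 786-O the count higher went from 0 to 1 against WT alone, 4 for SETD2KO-1 against SETD2KO-1R and 1 with the replicate block, and the count lower from 0 to 3, to 2, and to 1 without shared peaks. In RPTEC the count higher went from 1 to 4 against WT alone, 4 for SETD2KO-1 against SETD2KO-1R and 3 with the replicate block, and the count lower from 0 to 3 and 3. With 2 libraries in a group, lack of overlap is met more easily. By best percentile DDIT4 in 786-O and PGK1 in RPTEC were lower in SETD2KO against WT alone and higher for SETD2KO-1 against SETD2KO-1R; neither is separated with all libraries. NDRG1, ALDOA, LOX, VEGFA and PLOD1 kept the direction of their called difference wherever it was not 0. Where the construction does not show it the cause was not tested.

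Leaving out 1 library gave 2 to 2 and 1 to 1 calls by peak number and 1 to 2 and 1 to 2 by best percentile between cell lines. TGFA was added without RPTEC WT replicate 2 or SETD2KO-2 replicate 1, and INSIG2 without RPTEC SETD2KO-2 replicate 2. By SETD2 the peak number counts were 1 to 1 higher and 1 to 2 lower in 786-O (BNIP3 added without SETD2KO-2 replicate 1), and 0 to 0 and 0 to 1 in RPTEC (ERO1A added without WT replicate 2). By best percentile they were 0 to 1 and 0 to 1 in 786-O (changed without SETD2KO-1R replicate 1 or 2), and 1 to 3 and 0 to 1 in RPTEC (changed without WT replicate 1 or 2, SETD2KO-1 replicate 1 or SETD2KO-1R replicate 1 or 2). The interaction gave 0 to 0. The replicate numbers were taken not to pair the libraries: the correlations of the differences between same-numbered libraries ran from -0.0607 to 0.140 in 786-O and from -0.133 to 0.145 in RPTEC, over 6 pairs of lines each. Depth sets which sites are listed at all, and its value for each library is unknown.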
